A study of Mus musculus with 32 samples.

Results

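The comparison described here set C2C12 cells treated with trichostatin A (TSA) and kept for 48 h in differentiation medium (2 arrays) against C2C12 cells kept for 48 h in the same medium without a named treatment (2 arrays). These 4 arrays were chosen by their titles out of 32 in the series, of which 20 form the TSA arm. C2C12 is an established mouse myoblast line, grown without a host animal, and every array of the arm measured total RNA on the same Affymetrix design. The arm also holds TSA-treated and control cells harvested at 0 h, in growth medium, and at 4, 12 and 24 h of differentiation (2 arrays per treatment and time, 10 groups), and these groups contributed to the estimate of spread per probe set. The labels give neither the dose of TSA nor whether it was washed out, and they do not say that the 2 arrays of a group came from separate cultures. The p-values therefore measure only the spread between these samples. The remaining 12 arrays of the series, on a different perturbation, were not used here.

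Trichostatin A blocks the zinc-dependent histone deacetylases, the enzymes that remove acetyl groups from histone tails and from other proteins. In growing myoblasts, deacetylases are held at muscle gene promoters together with MyoD and MEF2, and they leave those promoters as differentiation begins. When myoblasts are moved to differentiation medium they leave the cell cycle, switch on myogenin and then the genes of the contractile apparatus, and fuse into myotubes. Follistatin, the product of Fst, is a secreted protein that binds activins and myostatin, and it is a known target of deacetylase inhibition in muscle cells, where it promotes larger myotubes.

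Trimmed means lay between 800.57 and 800.69 on all 20 arrays, and 21.8% to 24.2% of the probe sets were listed at or below 0 on the arrays of 48 h. The TSA arrays correlated with each other at 0.930 (Spearman, over the 7453 probe sets tested), the control arrays at 0.913, which was the lowest value within any group of the arm, and TSA with control arrays at 0.858 to 0.875. The ratio of the 3' to the 5' Gapdh control probe set was 0.830 to 0.890 at 48 h, within the range of 0.739 to 0.944 of the arm. All 7 markers of the skeletal muscle line (Myod1, Myf5, Myog, Cdh15, Des, Chrna1 and Itga7) were above 0 on all 4 arrays, with summed intensities of 56932 and 55294 in TSA cells and of 50674 and 53410 in control cells.

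TSA changed many genes at 48 h in both directions. Of 5636 genes tested, 617 were higher in TSA cells (10.9%) and 515 were lower (9.14%), together 20.1%, at an adjusted p under 0.05 in limma. Of 7453 probe sets, 786 were higher (10.5%) and 678 lower (9.1%), together 19.6%. The median log2 change was -0.02 over all genes tested and -0.03 over all probe sets tested. The counts and medians of the gene lists below are to be read beside these values. All log2 changes below are TSA minus control on the scale log2(intensity + 137.7), on which the change of a dim gene is smaller than the ratio of its intensities. With the 30th or the 60th percentile as pseudocount, the log2 changes of 29 of 136 called genes moved by over 1.5 times, among them those given below for Avil, Car3, Cdk1, Crebbp, Dusp1, F3, Hdac1, Id2, Irs1, Myc, Slpi, Smc2, Tgfbr3 and Top2a. Where both arrays of a group were at or below 0, a log2 change is set by the pseudocount. Genes said to rise or fall were higher or lower in TSA than in control cells at the same time. Their course over time can differ. Values after ± are standard errors and n = 2 arrays per group throughout. In these bulk samples, fewer cells of a kind and less RNA per cell cannot be told apart. With the spread taken from the 4 arrays of 48 h alone, 20 probe sets passed (14 higher, 6 lower), among them those of Fst, Mb, Myh7, Ckb, Myl9, Chchd10 and Txnip, and 1498 had an unadjusted p under 0.05, so most calls below rest on the spread estimated over the whole arm. Median absolute log2 differences between the 2 arrays of a group were 0.273 in control and 0.232 in TSA cells at 48 h. These were the largest of the arm, so the shared spread, and the p-values, can be too small at 48 h. For a gene whose early arrays differed widely near 0, they can also be too large.

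**Figure D1:**
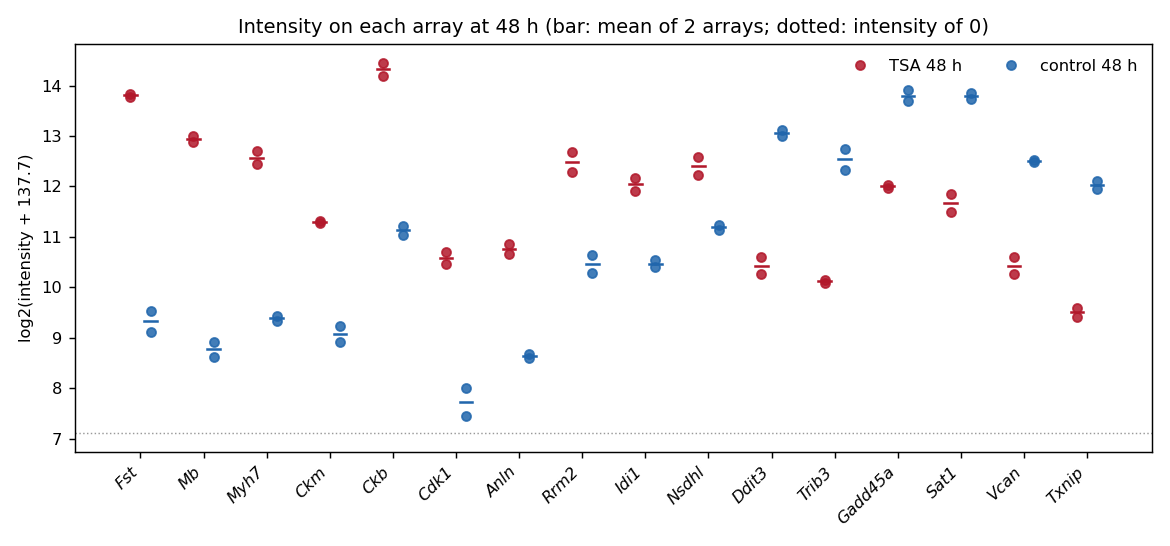
Intensity of 16 genes on each array at 48 h, drawn as log2(intensity + 137.7) on the vertical axis; points are arrays, bars are means of 2 arrays, and the dotted line marks an intensity of 0. TSA cells (left of each pair) lie above control cells for the genes from Fst to Nsdhl and below them for the genes from Ddit3 to Txnip, with no overlap between the groups. Groups were without overlap in 55.2% of all genes tested.

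Among genes with both group means above 0, Fst had the largest log2 change upward. It had intensities of 13962 and 14450 in TSA cells, against 419 and 605 in control cells, a log2 change of 4.48 ± 0.19 (adjusted p = 2.09e-08) and a ratio of means of 27.7. Both TSA arrays stood far above both control arrays. The effect on Fst had been smaller at the earlier times, with log2 changes of 1.54 at 0 h and 2.56 at 4 h, which passed, and of 0.67 at 12 h and 0.45 at 24 h, which did not. At 48 h the effect exceeded their mean by 3.17 (adjusted p = 1.06e-06).

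Among the other members of the TGF-beta, activin and BMP family, 7 of 29 tested rose, Fst included, and 2 fell (10.9% and 9.14% of all genes), with a median log2 change of 0.39. Tgfbr3, the betaglycan coreceptor, had 761 and 673 in TSA cells, against 130 and 162 in control cells, a log2 change of 1.59 ± 0.19 (adjusted p = 9.29e-05). Tgfb3, a TGF-beta ligand, had 5689 and 5795 in TSA cells, against 2734 and 2848 in control cells (log2 change 1.01 ± 0.13, adjusted p = 2.42e-04). Fstl1, a secreted protein related to follistatin, had 2258 and 1990 in TSA cells, against 1103 and 989 in control cells (log2 change 0.93 ± 0.14, adjusted p = 6.50e-04). In these 3 genes the groups did not overlap, as in 55.2% of all genes tested. Mstn, which encodes myostatin, a ligand that follistatin binds, had 174 and 309 in TSA cells and 211 and 312 in control cells, and its log2 change of -0.09 ± 0.34 did not pass (adjusted p = 0.891).

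In the insulin-like growth factor axis 3 of 11 genes tested rose and none fell (median 0.21), against 10.9% and 9.14% of all genes. Igfbp3, a binding protein that carries these growth factors, had 1502 and 1682 in TSA cells, against 218 and 208 in control cells, a log2 change of 2.30 ± 0.32 (adjusted p = 3.42e-04), and its effect had passed at all earlier times too, with log2 changes of 2.39 at 12 h and 1.94 at 24 h. At 0 and 4 h both of its control arrays were at or below 0, and no fold is given. The adaptor Irs1 had 595 and 268 in TSA cells, against -17.8 and 61.8 in control cells (log2 change 1.72 ± 0.32, adjusted p = 0.00259). Igf2, the growth factor that myoblasts secrete as they differentiate, had 21671 and 15889 in TSA cells and 15036 and 17199 in control cells. These groups overlapped and the log2 change of 0.21 ± 0.20 did not pass (adjusted p = 0.527). At 24 h Igf2 had been at or below 0 on both TSA arrays, against 3877 and 2176 in control cells. The imprinted gene Mest, expressed in embryonic mesoderm, had 2492 and 2068 in TSA cells, against 689 and 940 in control cells (log2 change 1.35 ± 0.18, adjusted p = 2.52e-04), and of 11 imprinted genes tested 2 rose and none fell (median 0.02).

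Many genes of the muscle cell were higher in TSA cells. Over the 6 lists of sarcomere thick filament, thin filament, Z-disc, excitation-contraction coupling, neuromuscular junction and muscle metabolism, 38 of 74 genes tested rose, none fell and 36 did not pass, with a median log2 change of 0.62. Of all genes tested 10.9% rose and 9.14% fell, with a median of -0.02. By list, 6 of 13 thick filament genes rose (median 0.57), 5 of 11 thin filament genes (0.73), 7 of 13 genes of the Z-disc, titin and costamere (0.74), 7 of 11 genes of excitation-contraction coupling (0.42), 4 of 11 genes of the neuromuscular junction (0.39) and 9 of 15 genes of muscle metabolism (1.07). Several of these counts depended on single arrays. The count for the Z-disc was 2 without TSA replicate 2 and 4 without control replicate 2. That for excitation-contraction coupling was 3, 3, 4 and 2 without TSA replicate 1, TSA replicate 2, control replicate 1 and control replicate 2. That for the thin filament was 3 without each of the 4 arrays in turn.

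Among the genes of the 6 lists, Mb had the largest log2 change. Mb, which encodes myoglobin, the oxygen store of muscle, had 7413 and 8048 in TSA cells, against 345 and 255 in control cells, a log2 change of 4.17 ± 0.28 (adjusted p = 1.47e-06) and a ratio of 25.8. At 24 h its effect had been the opposite, with -86.3 and 27.4 in TSA cells, against 688 and 519 in control cells (log2 change -2.29). Ckb, the brain-type creatine kinase, had 22364 and 18448 in TSA cells, against 1976 and 2253 in control cells (log2 change 3.19 ± 0.13, adjusted p = 1.35e-08). Ckm, the muscle-type creatine kinase, had 2394 and 2325 in TSA cells, against 346 and 468 in control cells (log2 change 2.21 ± 0.18, adjusted p = 4.99e-06). Both creatine kinases were far higher on the 2 TSA arrays than on the 2 control arrays. Second probe sets of Mb and Ckm were too dim to test. Their means were 0.79 in TSA and -23.8 in control cells for Mb, and 117 and 73.9 for Ckm. The glycolytic muscle enolase Eno3 had 25883 and 22238 in TSA cells, against 11803 and 11218 in control cells (log2 change 1.05 ± 0.11, adjusted p = 3.55e-05). Car3, the muscle carbonic anhydrase, had 407 and 740 in TSA cells, against 72.2 and -44.4 in control cells, a log2 change of 2.02 ± 0.48 (adjusted p = 0.0108). With the 30th and the 60th percentile as pseudocount it was 2.94 and 1.03. Its log2 changes at the earlier times had been 2.65 to 4.64, and the difference from their mean was -1.73 (adjusted p = 0.0396). At 48 h Car3 did not pass without TSA replicate 2 (adjusted p = 0.0864) and without control replicate 2 (adjusted p = 0.0738).

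The proximal promoter of Ckm is shown because Ckm rose and belongs to the muscle metabolism list. MyoD binds DNA at E-boxes, but whether it binds the one marked here was not tested. The stretch runs from 250 bases before to 50 bases after the start that RefSeq lists (GRCm38.p6, chr7:19410844-19411143, plus strand), 5′ to 3′, and the capitals mark the E-box CAGCTG, which is its own reverse complement.
Ckm: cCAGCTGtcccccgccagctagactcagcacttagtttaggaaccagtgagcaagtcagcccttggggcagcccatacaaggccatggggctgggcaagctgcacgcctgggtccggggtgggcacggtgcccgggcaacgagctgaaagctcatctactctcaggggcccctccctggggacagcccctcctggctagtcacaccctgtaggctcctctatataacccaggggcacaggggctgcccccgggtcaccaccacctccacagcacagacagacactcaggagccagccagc
CAGCTG was present in 52.2% of the promoters of the 46 genes tested of the 6 muscle lists that have 1 listed start, in 13.7% of those of 3625 genes tested, in 14.7% of those of 395 genes that rose, in 13.2% of those of 333 genes that fell, and in 16.1% of all 22862 promoters with 1 listed start. A match describes the letters in this window and is no measurement of binding.

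Contractile genes of both filaments were higher in TSA cells. The probe set of Myh7, the slow and cardiac beta myosin heavy chain, had 6572 and 5402 in TSA cells, against 557 and 504 in control cells, a log2 change of 3.19 ± 0.10 (adjusted p = 1.47e-09). This probe set is of a kind that can detect several members of a gene family, and it was listed below 0 on every array of the earlier times, so that its spread, and its p, came from few informative arrays and can be too small. A second probe set of Myh7 was too dim to test, with means of -13.8 in TSA and -404 in control cells. Myh3, the embryonic myosin heavy chain, had 22464 and 18066 in TSA cells, against 8661 and 7985 in control cells (log2 change 1.26 ± 0.14, adjusted p = 5.20e-05). The fast light chain Mylpf had 18036 and 15063 in TSA cells, against 6630 and 8139 in control cells (log2 change 1.15 ± 0.14, adjusted p = 9.29e-05), and the embryonic light chain Myl4 changed by 0.92 ± 0.16 (adjusted p = 0.00168). Second probe sets of Mylpf (0.87, adjusted p = 0.102) and Myl4 (0.34, adjusted p = 0.215) did not pass. For the probe sets used here, the groups of Myh3, Mylpf and Myl4 did not overlap, as in 55.2% of all genes tested.

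Several thin filament genes were higher in TSA cells as well. Tnnt1, slow troponin T, had 30158 and 25810 in TSA cells, against 12080 and 13331 in control cells (log2 change 1.13 ± 0.18, adjusted p = 9.53e-04). Tnnt2, the cardiac and embryonic form, changed by 1.004 ± 0.20 (adjusted p = 0.00344) and Tnnt3, the fast form, by 1.21 ± 0.24 (adjusted p = 0.00342). Tpm2, beta tropomyosin, had 14988 and 17192 in TSA cells, against 6950 and 6292 in control cells, a log2 change of 1.26 ± 0.35 (adjusted p = 0.0236) that did not pass without each of the 4 arrays in turn (adjusted p = 0.0597 to 0.114). The actins Acta1 (log2 change 0.66 ± 0.27, adjusted p = 0.109) and Actc1 (0.31 ± 0.14, adjusted p = 0.163), the troponin Tnnc1 (0.31 ± 0.26, adjusted p = 0.459) and the light chain Myl1 (0.22 ± 0.29, adjusted p = 0.651) did not pass. A second probe set of Actc1 gave 0.98 (adjusted p = 0.0321). Acta1 had 34800 and 28617 in TSA cells, against 19919 and 20049 in control cells. With the 60th percentile as pseudocount it passed in limma (0.65, adjusted p = 0.00884). The count of thin filament genes that rose was then 7, and 3 with the 30th percentile. Early arrays near 0 also entered the spread of Acta1, such as 9.38 and 113 in control cells at 0 h. Genes that did not pass can therefore still differ.

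At the Z-disc, where thin filaments are anchored, the fast-fibre alpha-actinin gene Actn3 had 7872 and 9044 in TSA cells, against 2177 and 1931 in control cells (log2 change 1.97 ± 0.46, adjusted p = 0.00924, and 0.0565 without TSA replicate 2). Xirp1, an actin-binding protein of striated muscle, had 1506 and 1573 in TSA cells, against 834 and 815 in control cells (log2 change 0.80 ± 0.18, adjusted p = 0.00837). Des, desmin, the intermediate filament that ties Z-discs together, had 4098 and 5371 in TSA cells, against 2564 and 2554 in control cells (log2 change 0.84 ± 0.18, adjusted p = 0.00590, and 0.0606 without TSA replicate 2). The groups were apart in all 3 genes, as in 55.2% of all genes tested.

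At the membranes of the muscle cell, the sarcoplasmic reticulum pump Atp2a2 had 3076 and 2754 in TSA cells, against 643 and -112 in control cells, a log2 change of 3.22 ± 0.52 (adjusted p = 9.92e-04), which came to 1.97 without control replicate 2. Hrc, a calcium-binding protein of the same compartment, had 4116 and 3573 in TSA cells, against 1238 and 1324 in control cells (log2 change 1.49 ± 0.31, adjusted p = 0.00517). The pump of fast fibres Atp2a1 had 12058 and 10991 in TSA cells, against 6809 and 4918 in control cells (log2 change 0.98 ± 0.21, adjusted p = 0.00599), with an adjusted p of 0.0549 without control replicate 2. Cav3, the muscle caveolin, had 3891 and 3776 in TSA cells, against 1666 and 1663 in control cells (log2 change 1.14 ± 0.13, adjusted p = 9.38e-05). At the nerve-muscle contact, the acetylcholine receptor subunit Chrnb1 had 3662 and 3200 in TSA cells, against 1193 and 1036 in control cells (log2 change 1.51 ± 0.18, adjusted p = 8.21e-05), and the neuregulin receptor Erbb3 changed by 1.28 ± 0.21 (adjusted p = 0.00120). In these genes both TSA arrays were above both control arrays, and 55.2% of all genes tested had groups without overlap. The calcium release channel Ryr1 had 2363 and 2145 in TSA cells, against 918 and 991 in control cells (log2 change 1.13 ± 0.30, adjusted p = 0.0189), and did not pass without each of the 4 arrays in turn (adjusted p = 0.0573 to 0.0816).

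The transcription factors of the myogenic programme passed in shares near those of all genes, and those that did not pass can still differ. Of 15 myogenic factors and cofactors tested, 2 rose and 1 fell, with a median of -0.02, against 10.9% and 9.14% of all genes. Myog had 18767 and 20797 in TSA cells and 18686 and 21516 in control cells, groups that overlapped (log2 change -0.02 ± 0.44, adjusted p = 0.984). Myf5 had 1104 and 1125 in TSA cells and 931 and 1005 in control cells (log2 change 0.18 ± 0.18, adjusted p = 0.518), and Mef2c had 1306 and 899 in TSA cells and 542 and 568 in control cells (log2 change 0.82 ± 0.33, adjusted p = 0.101). Myod1 had 3875 and 4087 in TSA cells, against 5611 and 4563 in control cells, and fell by 0.34 ± 0.11 on the log2 scale (adjusted p = 0.0433), a call that needed TSA replicate 1 (adjusted p = 0.154 without it), TSA replicate 2 (0.0881) and control replicate 1 (0.268). The genes that rose, Mef2a and Mef2d, each changed by 0.54 ± 0.16 (adjusted p = 0.0308 and 0.0327). Mef2a did not pass without TSA replicate 1 (0.0780), TSA replicate 2 (0.123) or control replicate 2 (0.162), and that of Mef2d without each of the 4 arrays in turn (0.0724 to 0.118).

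Of 16 inhibitors of differentiation tested, 2 rose and 1 fell (median 0.02), against 10.9% and 9.14% of all genes. Id2, which binds the partners of MyoD and keeps them off DNA, had 831 and 967 in TSA cells, against 133 and 65.8 in control cells, a log2 change of 2.14 ± 0.25 (adjusted p = 9.38e-05). Its relatives Id1 (log2 change 0.21 ± 0.25, adjusted p = 0.608) and Id3 (0.05 ± 0.34, adjusted p = 0.941) did not pass. The repressor Bhlhe40 had 3880 and 4206 in TSA cells, against 2307 and 1741 in control cells (log2 change 0.96 ± 0.15, adjusted p = 9.57e-04). The repressor Snai2 had 1468 and 1485 in TSA cells, against 2913 and 2487 in control cells, and fell by 0.81 ± 0.18 on the log2 scale (adjusted p = 0.00845, and 0.0570 without control replicate 1). Among 17 genes for myoblast fusion and cell adhesion, 4 rose and 1 fell (median -0.03). N-cadherin, Cdh2, changed by 0.99 ± 0.14 (adjusted p = 3.39e-04), and Vcam1, an adhesion receptor of myoblasts, had 670 and 785 in TSA cells, against 1665 and 1968 in control cells, and fell by 1.17 ± 0.13 on the log2 scale (adjusted p = 5.57e-05), with -0.92 and -0.76 from its other probe sets.

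**Figure D2:**
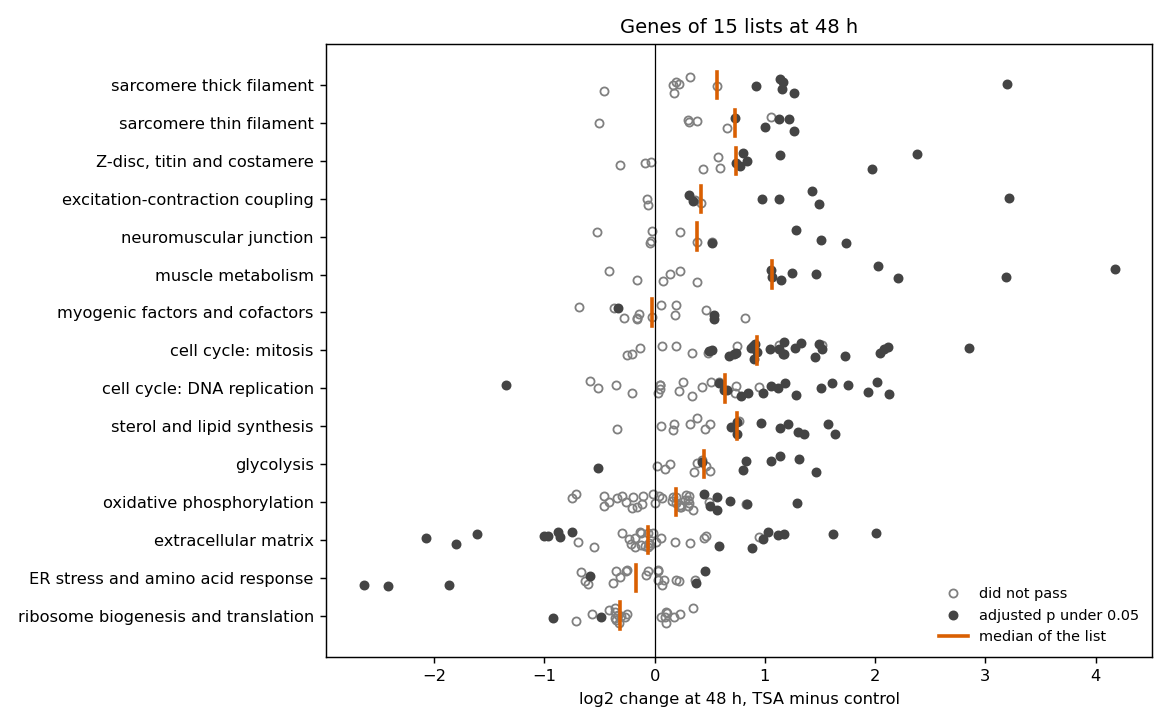
Log2 change at 48 h, TSA minus control, of every tested gene of 15 lists; filled points passed at an adjusted p under 0.05, open points did not, and the orange bar is the median of the list. The medians of the muscle lists, of both cell cycle lists and of sterol synthesis lie right of 0, those of ribosome biogenesis and of the ER stress response left of 0, and that of the extracellular matrix close to 0 with points on both sides.

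Genes of cell division were higher in TSA cells after 48 h. In mitosis 25 of 35 genes tested rose and none fell (median 0.93), and in DNA replication 16 of 34 rose and 1 fell (median 0.64, and 9 rose without TSA replicate 2), against 10.9% and 9.14% of all genes tested. In 31 of the 35 mitosis genes the 2 groups did not overlap, against 55.2% of all genes tested. Cdk1, the kinase that drives entry into mitosis, had 1270 and 1521 in TSA cells, against 37.8 and 120 in control cells, a log2 change of 2.85 ± 0.17 (adjusted p = 5.43e-07), or of 3.56 and 1.77 with the 30th and the 60th percentile as pseudocount. Anln, anillin, which organises the contractile ring of cytokinesis, had 1477 and 1720 in TSA cells, against 274 and 251 in control cells (log2 change 2.11 ± 0.14, adjusted p = 1.60e-06). The condensin subunit Smc2 had 673 and 742 in TSA cells, against 93.3 and 43.1 in control cells (log2 change 2.05 ± 0.17, adjusted p = 5.20e-06). The spindle checkpoint gene Mad2l1 had 1069 and 1155 in TSA cells, against 331 and 393 in control cells (log2 change 1.32 ± 0.12, adjusted p = 1.49e-05). All 4 genes were higher on both TSA arrays than on either control array.

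Replication genes followed. Rrm2, a subunit of ribonucleotide reductase, had 6409 and 4836 in TSA cells, against 1116 and 1449 in control cells (log2 change 2.02 ± 0.16, adjusted p = 4.99e-06). Top2a, the topoisomerase of dividing cells, had 807 and 719 in TSA cells, against 99.8 and 231 in control cells (log2 change 1.60 ± 0.20, adjusted p = 1.59e-04). Pcna, the sliding clamp, had 3773 and 4305 in TSA cells, against 1831 and 1731 in control cells (log2 change 1.12 ± 0.14, adjusted p = 1.63e-04). Dnmt1, the maintenance DNA methyltransferase, had 246 and 422 in TSA cells, against values at or below 0 in both control samples (adjusted p = 9.43e-05). Tcf19, Ncaph, Dlgap5 and Gtse1, all known from dividing cells, lay between 155 and 668 on the TSA arrays and likewise at or below 0 in both control samples, with adjusted p of 2.97e-06, 6.26e-05, 6.42e-05 and 7.69e-05. No fold is given for these genes, and their p can be too small because a floored group has no spread.

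The effect of TSA on these genes had a different direction at the start of the course. The median log2 change of the mitosis list was -1.56 at 0 h (34 of 35 genes fell, against 10.4% of all genes tested), -0.70 at 4 h (20 fell, against 5.91%), 0.09 at 12 h and 0.00 at 24 h (none passed at either time). That of the replication list was -0.60, 0.12, 0.00 and 0.38. At 0 h 17 of its 34 genes fell, against 10.4% of all genes. At 4 h 5 rose and 1 fell, against 5.98% and 5.91%. At 24 h 9 already rose and 1 fell, against 2.77% and 3.48%. The effect at 48 h exceeded the mean of the earlier effects in 31 of the 35 mitosis genes and in 17 of the 34 replication genes, and fell short of it in 1 replication gene, against 11.0% of all genes tested in the upward and 9.17% in the downward direction. Cdk1 had a log2 change of -1.60 at 0 h and between 0.00 and 0.09 at 4, 12 and 24 h, and its effect at 48 h exceeded their mean by 3.22 (adjusted p = 4.84e-07). For Anln the excess was 3.0001 (adjusted p = 2.96e-07). Between 24 and 48 h both genes went down in both treatments. Mean intensities of Cdk1 went from 4247 to 1396 in TSA cells and from 4239 to 78.7 in control cells. Those of Anln went from 3050 to 1598 in TSA cells and from 3632 to 263 in control cells. D17H6S56E-5, named here only by its locus symbol, had 2073 and 1747 in TSA cells, against 162 and 173 in control cells, a log2 change of 2.74 ± 0.19 (adjusted p = 1.64e-06), and of -2.60 at 0 h.

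The promoters of Cdk1 and Anln are shown because both genes were higher in TSA cells at 48 h and belong to the mitosis list. Each runs from 250 bases before to 50 bases after the RefSeq start (GRCm38.p6, Cdk1 at chr10:69352863-69353162 and Anln at chr9:22389157-22389456, both minus strand), 5′ to 3′. Capitals mark the CCAAT box (CCAAT or ATTGG), the cell cycle homology region core (TTTGAA or TTCAAA), at which DREAM and related complexes hold cell cycle genes silent in resting cells, and the GC box (GGGCGG or CCGCCC). No marked match shares a base with another.
Cdk1: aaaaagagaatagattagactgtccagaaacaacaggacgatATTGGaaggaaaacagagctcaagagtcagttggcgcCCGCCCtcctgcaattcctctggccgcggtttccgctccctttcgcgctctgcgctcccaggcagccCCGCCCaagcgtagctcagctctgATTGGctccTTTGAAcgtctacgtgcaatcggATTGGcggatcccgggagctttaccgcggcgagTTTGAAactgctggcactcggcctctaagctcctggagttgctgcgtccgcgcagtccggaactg
Anln: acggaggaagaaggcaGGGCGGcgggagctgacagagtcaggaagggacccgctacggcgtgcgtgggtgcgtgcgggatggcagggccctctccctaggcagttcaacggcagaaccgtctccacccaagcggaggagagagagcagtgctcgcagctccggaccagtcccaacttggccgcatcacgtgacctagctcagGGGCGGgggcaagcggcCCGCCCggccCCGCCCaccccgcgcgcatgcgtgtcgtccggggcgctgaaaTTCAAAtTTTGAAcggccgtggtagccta
The Cdk1 stretch holds 3 CCAAT boxes, 2 TTTGAA cores and 2 GC boxes, and the Anln stretch 2 TTTGAA cores and 4 GC boxes. TTTGAA or its reverse complement was present in 68.0% of the promoters of the 25 mitosis genes tested with 1 listed start, in 12.3% of those of all genes tested and in 18.5% of all promoters with 1 listed start. For CCAAT the shares were 72.0%, 39.7% and 38.2%, and for GGGCGG 76.0%, 65.9% and 35.2%. Among all genes that rose, TTTGAA was present in 12.9%, and among those that fell in 10.5%.

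Of 23 genes tested that hold the cell cycle in check, 3 rose and 3 fell (median 0.10), shares near those of all genes (10.9% and 9.14%). Cdkn1c, which encodes the inhibitor p57, had 1956 and 1746 in TSA cells, against 636 and 703 in control cells (log2 change 1.30 ± 0.21, adjusted p = 0.00114), and its effect had been -0.89 at 24 h. Cdkn1a, which encodes p21, a well-known target of deacetylase inhibitors, had 19452 and 15242 in TSA cells and 11742 and 11155 in control cells, and the log2 change of 0.58 ± 0.54 did not pass (adjusted p = 0.495). Gadd45a, a stress and p53 target, had 3867 and 4054 in TSA cells, against 13071 and 15251 in control cells, and fell by 1.80 ± 0.22 on the log2 scale (adjusted p = 1.05e-04), whereas its relative Gadd45b had 1305 and 1025 in TSA cells, against 320 and 304 in control cells (log2 change 1.52 ± 0.26, adjusted p = 0.00138). The cyclin gene Ccnd1 had 770 and 1116 in TSA cells, against 642 and 288 in control cells (log2 change 0.89 ± 0.23, adjusted p = 0.0173), which did not pass without TSA replicate 2 (adjusted p = 0.141) and without control replicate 2 (adjusted p = 0.138), and a second probe set gave 0.15. Among 11 p53 targets 2 rose and 3 fell (median 0.20), with Plk2 at 2841 and 3752 in TSA cells, against 8761 and 8412 in control cells (it fell by 1.36 ± 0.13 on the log2 scale, adjusted p = 2.12e-05).

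Enzymes of sterol and lipid synthesis were higher in TSA cells. Of 19 tested, 10 rose and none fell (median 0.74), against 10.9% and 9.14% of all genes. Idi1, the isomerase that makes the building block of sterols, had 4476 and 3718 in TSA cells, against 1220 and 1347 in control cells, a log2 change of 1.57 ± 0.13 (adjusted p = 6.46e-06). Ebp had 1788 and 1832 in TSA cells, against 684 and 565 in control cells (log2 change 1.36 ± 0.12, adjusted p = 7.48e-06). Nsdhl had 5986 and 4647 in TSA cells, against 2127 and 2274 in control cells (log2 change 1.21 ± 0.13, adjusted p = 5.21e-05), and Cyp51 changed by 1.30 ± 0.14 (adjusted p = 5.79e-05). Ebp, Nsdhl and Cyp51 act late in cholesterol synthesis, and none of these genes had overlapping groups, as in 55.2% of all genes tested. The other two probe sets of Nsdhl changed by 1.50 and 1.03.

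The list had been lower in TSA cells in the first 12 h. Its median log2 change was -0.75 at 0 h (12 of 19 fell, against 10.4% of all genes tested), -0.96 at 4 h (14 fell, against 5.91%), -0.94 at 12 h (11 fell, against 1.63%) and 0.06 at 24 h (1 rose, against 2.77%), and the effect at 48 h exceeded the mean of the earlier ones in 16 of the 19 genes, against 11.0% of all genes tested. Idi1 had 5 log2 changes, -1.41, -1.91, -1.10, 0.39 and 1.57 from 0 to 48 h, and the last exceeded the mean of the others by 2.58 (adjusted p = 3.85e-07). The promoter of Idi1 is shown as the member of smallest p (GRCm38.p6, chr13:8885356-8885655, plus strand, 250 bases before to 50 after the RefSeq start, 5′ to 3′), with CCAAT boxes, the GC box and the E-box in capitals. The E-box and the first CCAAT box stand next to each other without sharing a base.
Idi1: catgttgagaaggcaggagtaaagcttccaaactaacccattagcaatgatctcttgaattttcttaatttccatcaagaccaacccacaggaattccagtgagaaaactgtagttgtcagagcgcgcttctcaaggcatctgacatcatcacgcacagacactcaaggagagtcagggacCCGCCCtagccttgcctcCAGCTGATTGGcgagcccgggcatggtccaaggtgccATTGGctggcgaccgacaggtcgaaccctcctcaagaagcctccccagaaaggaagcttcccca
CCAAT or ATTGG was present in all 12 promoters of tested sterol genes with 1 listed start, against 39.7% of those of all genes tested, GGGCGG in 91.7%, CAGCTG in 16.7% and TTTGAA in 0 of the 12. CCAAT is the binding sequence of NF-Y, which is known to act beside the sterol regulatory factors at such promoters.

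**Figure D3:**
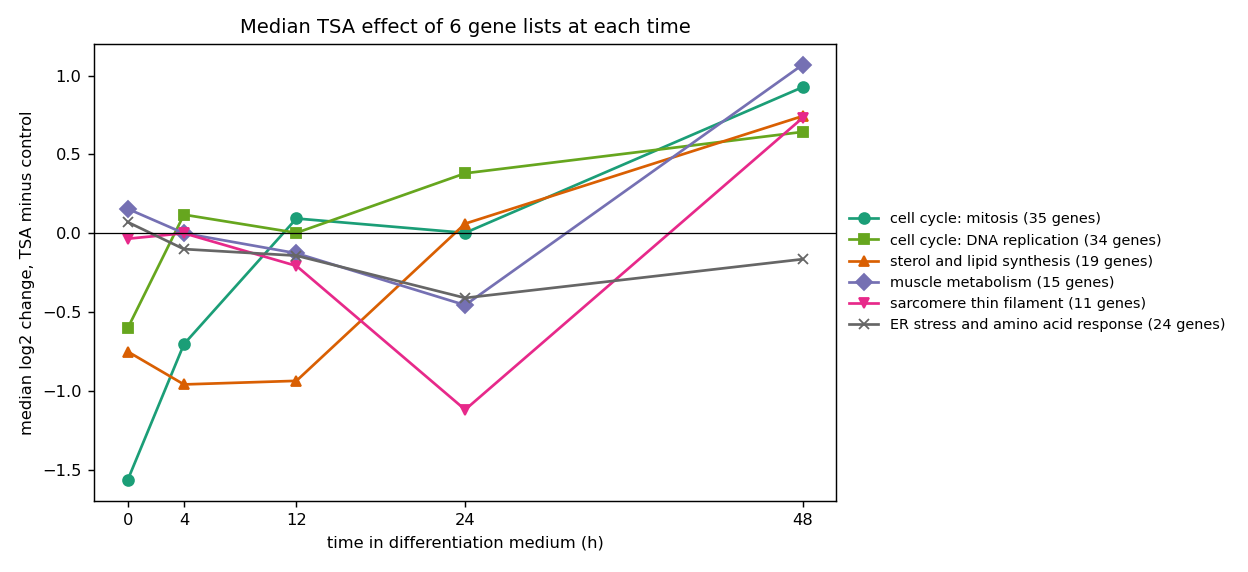
Median log2 change, TSA minus control, of the tested genes of 6 lists at 0, 4, 12, 24 and 48 h in differentiation medium. The mitosis list runs upward from -1.56 at 0 h to 0.93 at 48 h, sterol synthesis from -0.75 to 0.74, and thin filament and muscle metabolism dip to -1.12 and -0.46 at 24 h before reaching 0.73 and 1.07 at 48 h.

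The lists of thin filament, thick filament and muscle metabolism genes had their lowest medians at 24 h. The median log2 change of the thin filament list was -0.03, 0.00, -0.21, -1.12 and 0.73 at the 5 times, that of the thick filament list -0.05, 0.00, -0.01, -0.56 and 0.57, and that of muscle metabolism 0.15, 0.00, -0.13, -0.46 and 1.07. At 24 h 5 thin filament genes, 4 thick filament genes and 4 genes of muscle metabolism passed as lower, against 3.48% of all genes tested. The effect at 48 h exceeded the mean of the earlier effects in 8 of 11 thin filament genes, 7 of 13 thick filament genes, 8 of 11 genes of excitation-contraction coupling and 9 of 15 genes of muscle metabolism, against 11.0% of all genes tested. Many muscle genes were at or below 0 on arrays of the first 12 h, where their effects are then near 0. Actc1 and Tnnc1, which did not pass at 48 h, had log2 changes of -1.51 and -1.70 at 24 h, and their effects at 48 h exceeded the mean of the earlier ones by 0.80 (adjusted p = 0.00434) and 1.12 (adjusted p = 0.0189). For Ckm the excess was 2.41 (adjusted p = 5.32e-06). At 4 h all 4 arrays of Tnnc1 and both TSA arrays of Ckm were at or below 0.

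Of 16 glycolysis genes, Eno3 included, 7 rose and 1 fell (median 0.45). The counts of this paragraph stand beside 10.9% higher and 9.14% lower among all genes tested. Ldha, lactate dehydrogenase, had 25340 and 21493 in TSA cells, against 8954 and 9705 in control cells (log2 change 1.31 ± 0.12, adjusted p = 1.13e-05), and the muscle phosphofructokinase Pfkm had 5915 and 4541 in TSA cells, against 1767 and 1818 in control cells (log2 change 1.46 ± 0.19, adjusted p = 2.37e-04). Pdk1, which limits entry of pyruvate into mitochondrial oxidation, changed by 1.13 ± 0.14 (adjusted p = 1.33e-04). In oxidative phosphorylation 7 of 40 genes rose and none fell (median 0.20), with counts of 4, 3 and 4 without TSA replicate 1, TSA replicate 2 and control replicate 2. The complex III subunit Uqcrh changed by 0.68 ± 0.14 (adjusted p = 0.00406). Fatty acid oxidation and lipid handling had 4 genes higher and 4 lower of 21 (median -0.28). Cpt1a, the carnitine transferase at the mitochondrial surface, fell by 0.96 ± 0.16 on the log2 scale (adjusted p = 0.00103) and the carrier Slc25a20 by 0.78 ± 0.12 (adjusted p = 9.12e-04), while the oxidation enzyme Hadhb changed by 0.61 ± 0.10 (adjusted p = 0.00157).

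Several stress-induced genes were far lower in TSA cells. In the list for stress of the endoplasmic reticulum and amino acid shortage, 4 of 24 genes fell and 2 rose (median -0.16; 9.14% and 10.9% of all genes), and the largest changes of the list were those of Ddit3, Trib3 and Ppp1r15a, which are known targets of the factor ATF4. Ddit3, which encodes the factor CHOP, had 1408 and 1083 in TSA cells, against 8105 and 8707 in control cells, and fell by 2.64 ± 0.34 on the log2 scale (adjusted p = 1.99e-04). Trib3, a pseudokinase, had 998 and 955 in TSA cells, against 5029 and 6724 in control cells (it fell by 2.42 ± 0.39, adjusted p = 9.72e-04). Ppp1r15a, which restores translation after stress, had 406 and 690 in TSA cells, against 2238 and 2364 in control cells (it fell by 1.86 ± 0.17, adjusted p = 1.16e-05). All TSA arrays lay below all control arrays in these 3 genes, and 55.2% of all genes tested had groups without overlap. At 24 h their log2 changes had been -3.23, -3.27 and -2.56. Between 24 and 48 h the mean of Ddit3 went up in both treatments, from 290 to 1246 in TSA cells and from 3854 to 8406 in control cells. Atf4 itself, the other gene of the list that fell, had 15508 and 16010 in TSA cells, against 24826 and 22526 in control cells. Its log2 change was -0.58 (adjusted p = 0.0232), and -0.65 to -0.51 with 1 array left out. The chaperone gene Hspa5, which marks the unfolded protein branch, was named after its values were seen. Hspa5 had 13080 and 11094 in TSA cells and 13214 and 15724 in control cells (log2 change -0.26 ± 0.16, adjusted p = 0.304). The cause of these differences was not tested.

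The mitochondrial genes Chchd10 and Lonp1 were lower in TSA than in control cells as well, although the mean of Chchd10 in TSA cells went from 288 at 24 h to 1846 at 48 h. Chchd10, a protein of the inner membrane folds, had 1819 and 1873 in TSA cells, against 14094 and 16726 in control cells, a log2 change of -2.97 ± 0.51 (adjusted p = 0.00151). Its effect had been positive in growth medium (log2 change 3.47) and at 4 h, when it had 2287 and 1222 in TSA cells and was at or below 0 on both control arrays, and negative at 24 h (-2.74). The effect at 48 h lay below the mean of the earlier ones, with a difference of -4.49 (adjusted p = 1.71e-04) whose size depends on the pseudocount. Lonp1, a mitochondrial protease, had 771 and 821 in TSA cells, against 4215 and 6002 in control cells (log2 change -2.47 ± 0.53, adjusted p = 0.00622), and a second probe set gave -1.01. Sat1, the enzyme that starts polyamine breakdown, had 2733 and 3554 in TSA cells, against 14675 and 13572 in control cells (log2 change -2.13 ± 0.15, adjusted p = 1.89e-06), after log2 changes of 1.41, 1.24, 1.13 and 0.13 at the earlier times. The difference from their mean was -3.11 (adjusted p = 3.06e-07).

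**Figure D4:**
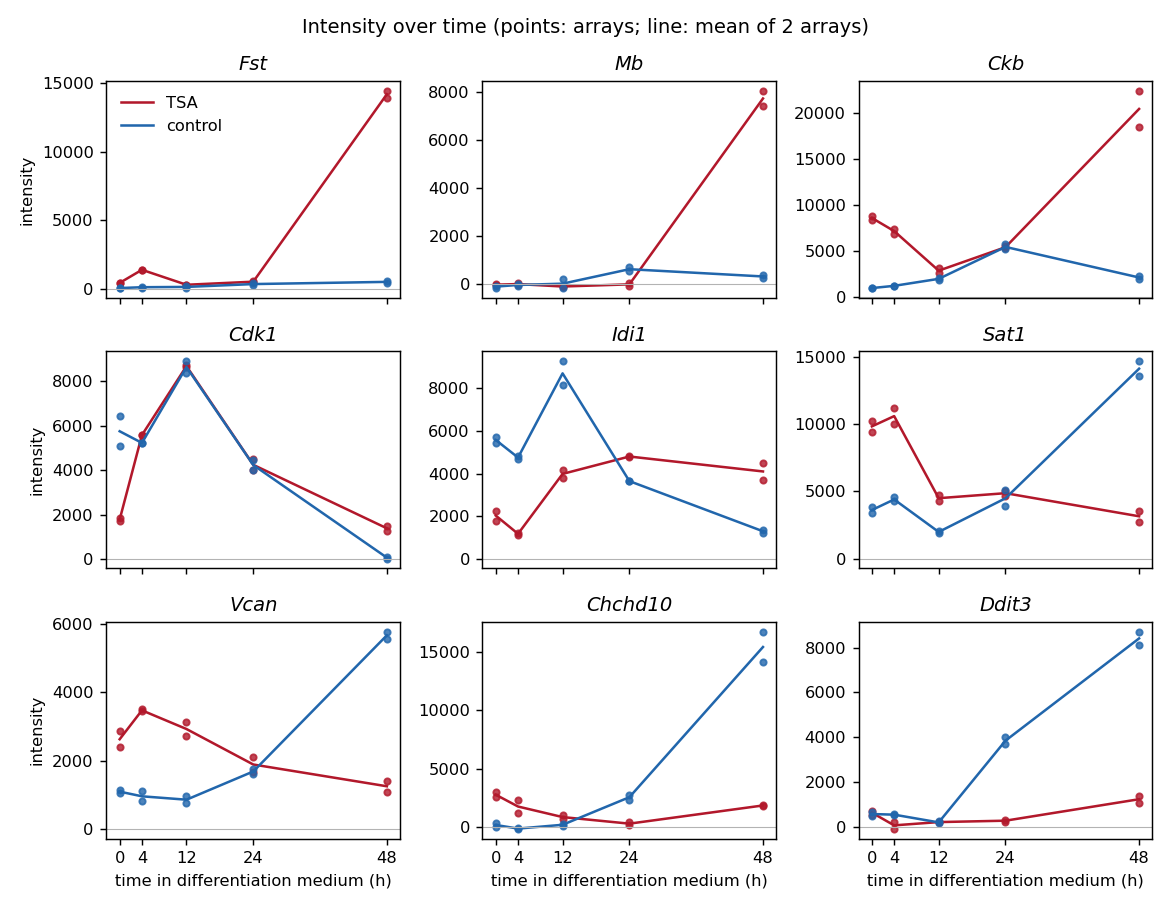
Intensity of 9 genes at 0, 4, 12, 24 and 48 h in differentiation medium; points are arrays and lines join the means of 2 arrays, TSA in red and control in blue, each panel with its own linear vertical axis. At 48 h TSA cells stand above control cells for Fst, Mb, Ckb, Cdk1 and Idi1 and below them for Sat1, Vcan, Chchd10 and Ddit3, and the control lines of Sat1, Vcan, Chchd10 and Ddit3 climb between 24 and 48 h.

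Extracellular matrix genes split, with 8 of 39 higher and 8 lower (median -0.06), against 10.9% and 9.14% of all genes. Vcan, the proteoglycan versican, had 1405 and 1091 in TSA cells, against 5559 and 5773 in control cells, a log2 change of -2.08 ± 0.17 (adjusted p = 6.21e-06), after 1.16, 1.74, 1.63 and 0.15 at the earlier times. The difference from their mean was -3.24 (adjusted p = 4.94e-07). Dcn, the proteoglycan decorin, had 543 and 482 in TSA cells, against 2005 and 2249 in control cells (log2 change -1.80 ± 0.20, adjusted p = 6.98e-05). Tnc, the matrix protein tenascin C, had 4910 and 3680 in TSA cells, against 1232 and 1357 in control cells (log2 change 1.62 ± 0.14, adjusted p = 9.41e-06), and it had been higher at every earlier time, with log2 changes of 1.10 to 1.66. The basement membrane gene Nid2 had 1920 and 1756 in TSA cells, against 871 and 790 in control cells (log2 change 1.03 ± 0.13, adjusted p = 1.92e-04). Groups did not overlap in these 4 genes, as in 55.2% of all genes tested.

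Among the deacetylases and acetyltransferases themselves, 4 of 15 genes rose and none fell (median 0.15), against 10.9% and 9.14% of all genes. Hdac1, a class I deacetylase that TSA inhibits, had 729 and 525 in TSA cells, against 112 and 59.1 in control cells, a log2 change of 1.77 ± 0.21 (adjusted p = 1.01e-04). The acetyltransferase gene Crebbp had 557 and 592 in TSA cells, against -199.5 and 239.9 in control cells (log2 change 1.64 ± 0.36, adjusted p = 0.00682), and the change was 0.92 without control replicate 1. Rbbp7, a histone-binding partner of deacetylase complexes, had 7852 and 7915 in TSA cells, against 4344 and 5098 in control cells (log2 change 0.73 ± 0.13, adjusted p = 0.00170). For Hdac1 and Rbbp7 the effect at 48 h exceeded the mean of the earlier effects, by 1.49 (adjusted p = 9.07e-04) and 0.90 (adjusted p = 8.70e-04).

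The list of known deacetylase inhibitor response genes had 5 of 13 higher and 1 lower (median 0.37), after medians of 0.83 at 0 h and 0.67 at 4 h. Over all genes tested 10.9% rose and 9.14% fell at 48 h. Ccn2, connective tissue growth factor, had 339 and 424 in TSA cells, against values at or below 0 in both control samples (adjusted p = 5.20e-05). Tubb3, a tubulin known from neurons, had 12209 and 8096 in TSA cells, against 3685 and 4132 in control cells (log2 change 1.32 ± 0.16, adjusted p = 1.41e-04), and gelsolin, Gsn, changed by 0.78 ± 0.12 (adjusted p = 6.29e-04). Txnip, a redox protein often induced by deacetylase inhibitors, had 544 and 636 in TSA cells, against 3816 and 4261 in control cells, and its log2 change was -2.52 ± 0.21 (adjusted p = 6.30e-06). It had been 0.83, 1.60 and 1.39 at 0, 4 and 12 h. A second probe set of Txnip, with means of 584 in TSA cells and 617 in control cells, gave -0.09 (adjusted p = 0.846). Of 7 histone and chromatin protein genes 2 rose and 1 fell (median 0.00), with Hmgb2, a chromatin protein of dividing cells, at 1.39 ± 0.19 (adjusted p = 3.37e-04).

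Of 18 immediate early genes 4 rose and 1 fell (median 0.34), against 10.9% and 9.14% of all genes tested. The other counts of this paragraph are to be read beside the same shares. Ccn1, a matricellular signalling gene, had 893 and 1884 in TSA cells, against 356 and 115 in control cells (log2 change 2.03 ± 0.38, adjusted p = 0.00242). Jun had 724 and 3648 in TSA cells, against 444 and 14.1 in control cells, 2 groups with wide spread (log2 change 2.60 ± 0.66, adjusted p = 0.0152), and it did not pass without TSA replicate 2 (adjusted p = 0.148) and without control replicate 2 (adjusted p = 0.135). The phosphatase gene Dusp1 had 749 and 1094 in TSA cells, against 448 and 119 in control cells (log2 change 1.43 ± 0.29, adjusted p = 0.00472, with a change of 0.83 without control replicate 2), and Myc, a growth regulator, changed by -0.69 ± 0.16 (adjusted p = 0.00918, and 0.0643 without TSA replicate 2). Of 23 oxidative stress genes 3 fell and 1 rose (median -0.15), with the glutathione transferase Gsto1 lower by 1.14 (log2 change -1.14 ± 0.11, adjusted p = 1.56e-05) and the autophagy receptor Sqstm1 at -1.04 ± 0.14 (adjusted p = 3.07e-04). Heat shock genes had 3 higher and 2 lower of 14 (median 0.16). In the interferon and antigen list there were 0 higher and 1 lower of 10 (Ifitm3, -1.30 ± 0.17, adjusted p = 1.67e-04) and cytokines 1 higher and 3 lower of 9 (median -0.38). Ribosome biogenesis had 0 higher and 2 lower of 22 (median -0.31), with a lower share near that of all genes (9.14%). The nucleolar gene Npm1 had 9259 and 9953 in TSA cells, against 16485 and 20237 in control cells (log2 change -0.92 ± 0.17, adjusted p = 0.00220).

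Markers of leukocytes, endothelium and adipocytes were mostly too dim to test, as were 7 of 14 neuron markers. Of 12 leukocyte and 10 endothelial markers, 3 and 2 were bright enough to be tested and none passed in limma, nor had any an unadjusted p under 0.05. Of 7 bone and cartilage markers 5 were tested, none passed and 2 had an unadjusted p under 0.05. Of the smooth muscle markers, 4 of 7 tested were higher (Myl9, Tagln, Cnn2 and Des) and none lower (median 0.84), against 10.9% and 9.14% of all genes tested. Des is also counted above among skeletal muscle genes, and the median is its own change. Summed intensities over all 9 markers were 43285 and 44155 in TSA cells, against 22801 and 26740 in control cells. Myl9, a regulatory light chain of smooth and nonmuscle myosin, had 5346 and 5004 in TSA cells, against 357 and 514 in control cells (log2 change 3.23 ± 0.16, adjusted p = 8.72e-08), and Tagln, which encodes an actin-binding protein, had 2763 and 1740 in TSA cells, against 511 and 844 in control cells (log2 change 1.55 ± 0.20, adjusted p = 2.02e-04). Acta2, smooth muscle actin, which differentiating C2C12 cells also express, had 17434 and 20057 in TSA cells and 10364 and 12791 in control cells (log2 change 0.69 ± 0.28, adjusted p = 0.110). The part of other cell kinds in these results was not tested. Of 10 adipocyte markers 3 were tested and 1 fell, Plin2, a coat protein of lipid droplets, with 3789 and 3472 in TSA cells, against 13323 and 16524 in control cells (log2 change -1.99 ± 0.13, adjusted p = 8.85e-07). Of 7 neuron markers tested 1 rose (Tubb3) and 1 fell (Stmn2, log2 change -0.41 ± 0.12, adjusted p = 0.0281, a call lost without TSA replicate 2, control replicate 1 or control replicate 2, with adjusted p of 0.166, 0.0559 and 0.114, and its other probe sets did not pass).

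Other genes were among those of largest change. Rrad, a small GTPase of muscle and heart, had 4936 and 5103 in TSA cells, against 414 and 356 in control cells (log2 change 3.31 ± 0.20, adjusted p = 5.55e-07). C1qtnf3, a secreted protein of the adiponectin family, had 11433 and 12035 in TSA cells, against 1244 and 1289 in control cells (log2 change 3.08 ± 0.18, adjusted p = 4.31e-07), and Ndrg4 had 6266 and 6022 in TSA cells, against 525 and 744 in control cells (log2 change 3.04 ± 0.18, adjusted p = 5.55e-07), with 1.29 from a second probe set of Ndrg4. Rrad and C1qtnf3 had passed at none of the earlier times, with log2 changes of -0.35 to 0.47. On the lower side, the actin-binding gene Avil had 66.4 and 17.6 in TSA cells, against 1763 and 1935 in control cells (log2 change -3.48 ± 0.36, adjusted p = 3.99e-05). Crabp2, which carries retinoic acid, had 800.2 and 812 in TSA cells, against 4928 and 5156 in control cells (log2 change -2.46 ± 0.15, adjusted p = 5.43e-07), and Cdsn had 834 and 673 in TSA cells, against 4191 and 4101 in control cells (log2 change -2.27 ± 0.18, adjusted p = 4.18e-06). F3, tissue factor, had 219.95 and 264 in TSA cells, against 766 and 929 in control cells (log2 change -1.37 ± 0.20, adjusted p = 4.39e-04), and had been lower at every earlier time, with log2 changes of -2.81 to -1.85.

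Ephx1, the microsomal epoxide hydrolase, was at or below 0 in both TSA samples, against 2553 and 3369 in control cells (adjusted p = 7.69e-05), and so was the glutathione transferase Gsta4, against 472 and 226 in control cells (adjusted p = 3.37e-04). No fold is given for either. Angptl4, a secreted inhibitor of lipoprotein lipase, had 170.2 and 297 in TSA cells, against 2463 and 2066 in control cells (log2 change -2.71 ± 0.25, adjusted p = 1.48e-05), and its other probe sets gave -2.97 and -0.23. Slpi, a secreted protease inhibitor, had -3.30 and 701 in TSA cells, against 1799 and 1841 in control cells (log2 change -2.53 ± 0.54, adjusted p = 0.00575). Its 2 TSA arrays differed widely, the change was -1.22 without TSA replicate 1 and -3.83 without TSA replicate 2, and the other probe sets gave -0.70 and 0.11.

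The comparison at 48 h was set against the earlier times over all genes. The effect at 48 h differed from the mean of the 4 earlier effects in 1136 of 5636 genes (20.2%, and 19.7% of probe sets). It was above that mean in 619 (11.0%) and below it in 517 (9.17%). It differed from the effect at 24 h in 460 genes (8.16%, and 7.86% of probe sets), upward in 280 (4.97%) and downward in 180 (3.19%). Of the genes that passed at 48 h, 782 also differed from the earlier mean (13.9% of all tested). Among these, 306 were higher at 48 h after a mean below 0 at the earlier times (5.43% of all tested), as for Cdk1, Anln and Idi1, and 196 were lower after a mean above 0 (3.48%), as for Vcan, Sat1, Txnip and Chchd10. At 0 h 8.45% of the genes passed as higher and 10.4% as lower, at 4 h 5.98% and 5.91%, at 12 h 2.43% and 1.63%, at 24 h 2.77% and 3.48%, and at 48 h 10.9% and 9.14%.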

How the data were processed

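Affymetrix arrays measured total RNA from the C2C12 line of mouse myoblasts. The deposited values are intensities on a linear scale, 1 per probe set and array, which the authors had scaled to a common trimmed mean, as the values show. Values below 0 occur, and the sources used here do not name the tool behind them. Arrays were grouped by treatment and time from their titles.

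Of 12422 probe sets (66 controls left out), 10833 mapped to 1 gene symbol in the platform annotation, which is dated, 396 to several and 1193 to none. Of the mapped ones, 10817 matched RefSeq (GRCm38.p6) through their Entrez identifier. Each of 8251 genes was represented by its probe set of highest mean. Values below 0 were set to 0, the 40th percentile of the 20 arrays (137.7) was added and log2 taken. Probe sets with a mean of at least 144.9, the 40th percentile of means, were tested (7453, of which 5636 represented genes). limma 3.58.1 in R 4.3.3 was fitted with 1 mean per treatment and time (10 residual and 2.45 prior degrees of freedom). p-values were adjusted by the Benjamini-Hochberg method over all 7453 probe sets of a comparison, and passed under 0.05. Tests were TSA against control at 48 h, and the difference of this effect from the mean of the 4 earlier effects and from that at 24 h. Precision is limited by having 2 arrays in each group.

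The comparison, its 38 gene lists and the genes named were chosen with earlier results of these data known. Lists are therefore described by counts and medians only, to be read against 10.9% higher, 9.14% lower and a median of -0.02 over all genes tested. Genes named were 26 fixed ones, the 12 of largest log2 change per direction with non-overlapping groups and means above 0, up to 4 per direction with a group at or below 0, up to 4 called members of smallest p per list, and the 8 of smallest p for the difference from earlier times, of which the text describes most. Hspa5 was named after its values were seen. Promoters came from RefSeq, with motifs searched on both strands; CCAAT and TTTGAA were added after seeing the data. On simulated data for the comparison at 48 h (7453 probe sets), the fit recovered 22%, 50%, 88% and 100% of 50 probe sets each with log2 changes of 0.5, 1, 2 and 4, and called 8 of 7253 unchanged ones. The simulated noise was independent, with 1 spread per probe set shared by all 10 groups. Far fewer probe sets were changed there than passed in the data. These rates need not hold for the arrays of 48 h, which differed most within their groups. Alternatives were other normalizations, pseudocounts, filters and variance estimates, a term for titles with the suffix b, the replicate number as a block, the 4 arrays of 48 h alone, and each array left out. Figures were drawn with matplotlib 3.10.9 under Python 3.11.15.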

Additional observations from a re-analysis of the deposited data

Results flagged for a closer look

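For 19 of the genes fixed for naming or named for this difference, the effect of TSA at 48 h differed from the mean of its effects at 0, 4, 12 and 24 h by the test of that difference (adjusted p under 0.05). Myh7, Anln, Sat1, Idi1, Cdk1, Vcan, D17H6S56E-5 and C1qtnf3 were chosen for the smallest p of this same test. Their passing was fixed in advance, so the count of 19 is no result. Of all genes tested, 20.2% passed. All values are log2, effect at 48 h minus the mean of the earlier effects. No cause was tested.

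The effect at 48 h lay above the earlier mean for genes of muscle, with differences of 3.19 for Myh7, 2.41 for Ckm, 1.12 for Tnnc1 and 0.80 for Actc1. Myh7 was listed below 0 on every array of the earlier times, and Tnnc1 on all 4 arrays of 4 h. Genes of division stood above the earlier mean by 3.22 for Cdk1 and 3.0001 for Anln. D17H6S56E-5, a locus symbol without a role given here, stood above it by 3.58. Secreted factors stood above it by 3.17 for Fst, 3.13 for C1qtnf3 and 1.32 for Igf2. Igf2 was below 0 on every array of 0, 4 and 12 h and on both TSA arrays of 24 h, so that its difference is set by the pseudocount, and its effect at 48 h did not pass. The cell cycle inhibitor Cdkn1c stood above it by 0.98, the sterol enzyme Idi1 by 2.58, the deacetylase Hdac1 by 1.49 and the coagulation receptor F3 by 0.88. F3 was lower in TSA cells at every time, and its effect at 48 h was the smallest in size of the 5.

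The effect at 48 h lay below the earlier mean for 5 genes. The differences were -4.49 for Chchd10, -3.24 for Vcan, -3.11 for Sat1, -1.73 for Car3 and -0.77 for Myod1. Both control arrays of Chchd10 at 4 h were below 0, so that the size of its difference depends on the pseudocount. Car3 was higher in TSA cells at every time, while Chchd10, Vcan and Sat1 were higher at 0 and 4 h and lower at 48 h.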

How the results depend on the processing

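Between 761 and 876 probe sets passed as higher under other normalizations, pseudocounts and variance estimates, without the filter, with a term for suffix b or with the replicate block, and 696 with the stricter filter, against 786. For lower the range was 596 to 790, against 678. With the arrays of 48 h alone in the fit, 14 passed as higher and 6 as lower. Fewer arrays then estimate the spread, and the arrays of 48 h also differed most within their groups. The part of each in these counts was not tested. Leaving out each array of 48 h in turn gave 518 to 702 higher and 450 to 588 lower, the lowest without TSA replicate 2. It gave 1026 to 1328 for the difference from the earlier mean (1471 with all arrays) and 422 to 591 for the difference from 24 h (586). In all, 352 higher and 270 lower probe sets were called in the full fit and without each of the 4 arrays. Deviations of arrays with the same replicate number correlated at -0.10, -0.09, 0.17, 0.23 and -0.10 at 0, 4, 12, 24 and 48 h, so the numbers were not taken to pair the samples at every time, and the replicate block gave 761 higher and 659 lower, 1441 and 555 for the 2 differences.

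None of 136 called genes that were followed reversed under any alternative, of which 120 could be run with the stricter filter. The calls were made on the same arrays, and other variance estimates left the log2 changes as they were. A reversal was therefore unlikely in advance, and its absence is no added support. Of these calls 106 to 116 remained with 1 array left out and 16 with the arrays of 48 h alone. The pseudocount moved the log2 changes of 29 of them by over 1.5 times, with 3.56 and 1.77 for Cdk1, 2.94 and 1.03 for Car3 and 3.10 and 0.86 for Ccn2 at the 30th and the 60th percentile. Counts of members, followed as an alternative chosen after seeing the data, moved by over 1.5 times with the stricter filter in the TGF-beta family (3 higher), thick filament (3) and excitation-contraction coupling (4), since fewer genes were tested, and with the 30th percentile as pseudocount in the thin filament (3). With 2 arrays per group, log2 changes of 0.5 were mostly missed in the simulation (22% recovered), where all groups shared 1 spread per probe set. Small changes can be missed in the data too.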
